A study of Mus musculus with 12 samples.

Results

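The C/EBP family is a group of transcription factors of the basic leucine zipper class, and 4 of its genes were examined here: Cebpa, Cebpb, Cebpd and Cebpg. They were taken by symbol from a table of read counts for 53599 mouse genes, and all 4 passed the filter on low counts that left 16210 genes for testing. The libraries came from sorted liver cells of mice labelled as wild type. All mice had been injected with AAV8-TBG-Cre, a virus in which the hepatocyte promoter TBG drives Cre recombinase, so that EGFP traces hepatocytes and their descendants. From 1 week later all received a diet with 0.1% DDC, a compound that injures bile ducts, for 8 weeks. In the early group the sorted cells were EGFP+ Cd24- Epcam-, in the intermediate group EGFP+ Cd24+ Epcam-, and in the full group EGFP+ Cd24+ Epcam+. The BEC group held EGFP- Epcam+ cells, the biliary epithelial cells that do not carry the hepatocyte trace. Each group had 3 libraries. All mice had been fed DDC, and no library came from an untreated animal. The labels do not say how many mice gave cells to a library, so p-values measure the spread between these libraries.

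C/EBP proteins bind DNA as pairs, with themselves, with each other or with related leucine zipper proteins. C/EBPα, encoded by Cebpa, is abundant in mature hepatocytes and drives genes of gluconeogenesis, bile acid synthesis and plasma proteins, and it restrains cell division. C/EBPβ and C/EBPδ are known as mediators of the acute phase response downstream of interleukins, and C/EBPγ, which lacks an activation domain of its own, acts mainly as a partner of other factors, ATF4 among them.

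The promoters are printed here beside the transcript levels that follow, and no link between the letters and the levels was tested. RefSeq windows of 300 bases, 250 before and 50 after the start, were found for 3 of the 4 members, on the build GRCm38.p6. Capitals mark the letters of 1 of 8 motifs searched on both strands. The Cebpa window is chr7:35119043-35119342 on the plus strand, the Cebpb window chr2:167688665-167688964 on the plus strand, and the Cebpg window chr7:35056517-35056816 on the minus strand.
Cebpa: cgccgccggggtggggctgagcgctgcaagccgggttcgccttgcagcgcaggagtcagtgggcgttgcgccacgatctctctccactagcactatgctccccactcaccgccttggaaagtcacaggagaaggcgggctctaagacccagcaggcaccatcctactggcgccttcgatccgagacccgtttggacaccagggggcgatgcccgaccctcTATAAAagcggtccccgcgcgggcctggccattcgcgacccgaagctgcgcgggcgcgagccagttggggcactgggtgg
Cebpb: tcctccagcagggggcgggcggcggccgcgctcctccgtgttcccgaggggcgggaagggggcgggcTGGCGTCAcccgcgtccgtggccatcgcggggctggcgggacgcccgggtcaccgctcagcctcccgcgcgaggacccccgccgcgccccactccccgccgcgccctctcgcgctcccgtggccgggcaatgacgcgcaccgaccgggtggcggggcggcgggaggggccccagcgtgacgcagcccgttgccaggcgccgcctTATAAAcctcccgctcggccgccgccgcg
Cebpg: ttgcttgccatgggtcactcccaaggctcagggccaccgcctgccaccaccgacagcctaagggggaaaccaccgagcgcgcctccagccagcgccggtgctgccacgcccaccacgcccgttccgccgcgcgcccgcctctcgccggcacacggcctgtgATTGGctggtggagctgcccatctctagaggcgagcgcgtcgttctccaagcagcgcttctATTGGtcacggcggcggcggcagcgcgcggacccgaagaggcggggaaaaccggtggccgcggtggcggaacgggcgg
In the Cebpa window the capitals are TATAAA, the letters of a TATA box, starting 30 bases before the start (position -30). In the Cebpb window they are TGACGNNA, a CREB/ATF-type motif read on the other strand, from position -183, and TATAAA from position 22, after the start. In the Cebpg window they are CCAAT on the other strand, from positions -89 and -28. Among 32851 mouse windows of this length, TATAAA was found in 13.6%, TGACGNNA in 6.61% and CCAAT in 37.4%. The other motifs searched were the C/EBP palindrome TTGCGCAA (0.183% of windows), its looser form TTGCNNAA (10.8%), TGACGTCA (1.79%, every match of which is also a match of TGACGNNA), the STAT motif TTCNNNGAA (8.30%) and the C/EBP-ATF motif TGATGNAAT (0.965%). None of these 5 was in the 3 windows. Guanine and cytosine made up 67.3% of the Cebpa window, 80.7% of the Cebpb window and 71.7% of the Cebpg window, against a median of 52.7% over all windows.

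The libraries held between 15112893 and 19731887 counts, and 3 counts, the level taken as the floor, corresponded to 0.128 to 0.273 CPM. CPM is the usual read count relative to library size, with library sizes scaled here by the trimmed mean of M-values (TMM), whose factors ran from 0.652 in an early library to 1.22 in a full library. The sort was checked first. Cd24a had mean levels of 3.20, 444, 1074 and 1073 CPM and Epcam 0.592, 18.8, 254 and 866 CPM in early, intermediate, full and BEC libraries. Cd24a and the full and BEC levels of Epcam followed the gates, but Epcam was also higher in intermediate than in early cells (log2 fold change 4.99, adjusted p = 7.68e-08), both of which are labelled Epcam-. The hepatocyte marker Alb ran the other way, with means of 73507, 12631, 2582 and 1653 CPM.

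Cebpa, the hepatocyte factor, was the most abundant member and fell at both steps of the hepatocyte series. It stood at 854, 847 and 1085 CPM in the early libraries and at 277, 315 and 379 CPM in the intermediate ones. Full libraries had 117, 119 and 127 CPM, and BEC libraries 89.0, 152 and 150 CPM. The early, intermediate and full groups did not overlap, while the full libraries lay inside the BEC range. From early to intermediate Cebpa was 2.87-fold lower, a log2 fold change of -1.52 (SE 0.19, edgeR quasi-likelihood test, Benjamini-Hochberg adjusted p = 1.18e-05). From intermediate to full it was 2.68-fold lower, a log2 fold change of -1.42 (SE 0.19, adjusted p = 4.15e-05). The 2 steps were thus of like size, and their difference on the log2 scale was 0.10 (adjusted p = 0.881). Fewer cells of a type and less RNA per cell cannot be told apart in such bulk libraries.

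Cebpb, the acute phase factor, also fell at both steps, with a second fall that rested on single libraries in the unpaired fit. The early libraries had 343, 200 and 203 CPM, the intermediate ones 93.8, 78.2 and 65.3 CPM. In full libraries the values were 57.7, 47.9 and 33.8 CPM and in BEC libraries 25.2, 54.4 and 50.1 CPM. Early replicate 1 stood well above the other early libraries, and the early, intermediate and full groups did not overlap, while full and BEC did. The first step was a 3.14-fold drop (log2 fold change -1.65, SE 0.29, adjusted p = 0.000255). The second was a 1.70-fold drop (log2 fold change -0.77, SE 0.29, adjusted p = 0.0455). The call of the second drop was lost without intermediate replicate 1, intermediate replicate 2, full replicate 2, full replicate 3 or BEC replicate 3, with log2 fold changes from -0.95 to -0.58 and adjusted p from 0.0181 to 0.165 over all omissions of 1 library. It was also lost with total counts as the only scaling (-0.57, adjusted p = 0.123). Within replicate numbers Cebpb was lower in full than in intermediate in 3 of 3, by log2 differences from -0.95 to -0.70. The difference between the steps was 0.89 on the log2 scale and did not pass the test (adjusted p = 0.268), although without a filter on low counts it did (0.86, adjusted p = 0.0331).

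Cebpd, the other acute phase factor, was the scarcest member and had its lowest level in intermediate cells. It had 14.3, 15.1 and 12.6 CPM in early libraries and 5.66, 7.07 and 4.30 CPM in intermediate ones. Full libraries had 10.9, 9.86 and 5.69 CPM, and BEC libraries 9.30, 15.2 and 11.9 CPM. All intermediate libraries lay below all early and all BEC libraries, and full replicate 3 fell within the intermediate range. The values rest on 76 to 326 counts a library. The first step was a 2.46-fold drop (log2 fold change -1.30, SE 0.26, adjusted p = 0.000856). From intermediate to full the log2 fold change was 0.64 (SE 0.26) and missed the threshold in the fit without pairing (adjusted p = 0.0667). With the replicate block it was 0.63 and passed (adjusted p = 0.026), and all 3 replicate numbers were higher in full, by 0.39 to 0.94. It also passed with total counts only (0.84, adjusted p = 0.0199) and with DESeq2 (0.68, adjusted p = 0.0332). BEC libraries were 2.14-fold above intermediate ones (log2 fold change 1.09, adjusted p = 0.00278).

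For Cebpd the 2 steps differed. Its change at the second step exceeded that at the first by 1.94 on the log2 scale (SE 0.47, adjusted p = 0.0119), a contrast chosen after the values were seen. This was 1 of 4 members, against 16.4% of the genes tested that were called for this difference in either direction. Without intermediate replicate 3 the difference was 1.59 and the call was lost (adjusted p = 0.0651). Full against early, Cebpd was lower by 0.67 on the log2 scale, a log2 fold change of -0.67 (adjusted p = 0.0297), but the call was lost without early replicate 1, early replicate 2 or full replicate 3, where the log2 fold changes were -0.65, -0.62 and -0.42. BEC against early gave -0.21 (adjusted p = 0.474), with overlapping groups.

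Cebpg, the partner of ATF4, varied least. Its levels were 78.1, 73.2 and 81.5 CPM in early, 62.7, 65.9 and 68.1 CPM in intermediate, 49.6, 61.9 and 61.8 CPM in full and 49.0, 62.2 and 60.9 CPM in BEC libraries. Each of the first 3 groups lay wholly below the one before it, and full and BEC libraries covered nearly the same range. The steps were small, with log2 fold changes of -0.24 (SE 0.11, adjusted p = 0.0801) and -0.18 (SE 0.11, adjusted p = 0.207), neither past the threshold. With the replicate block the first was -0.25 and passed (adjusted p = 0.0336). Over both steps together the fall passed, at -0.43 for full against early (adjusted p = 0.00342) and -0.44 for BEC against early (adjusted p = 0.00284). This direction depended on the scaling. With total counts as the only scaling Cebpg was higher in intermediate than in early cells (log2 fold change 0.42, adjusted p = 0.00513) and higher in full than in early (0.44, adjusted p = 0.00299). That scaling also moved the median of all genes tested from 0.06 to 0.72 at the first step, from 0.01 to 0.21 at the second and from 0.14 to 1.0 for full against early, and calls at the first step were then 85.6% higher in place of 52.8%. Cebpg stayed below that median in each case. Cebpa and Cebpb kept their direction in these comparisons, with smaller falls at the first step, -0.86 for Cebpa (adjusted p = 0.000938) and -0.98 for Cebpb (adjusted p = 0.00707). Cebpd had -0.63 there (adjusted p = 0.0468), and changed sign only against early, to 0.20 in full (adjusted p = 0.475) and 0.66 in BEC (adjusted p = 0.0267).

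**Figure D1:**
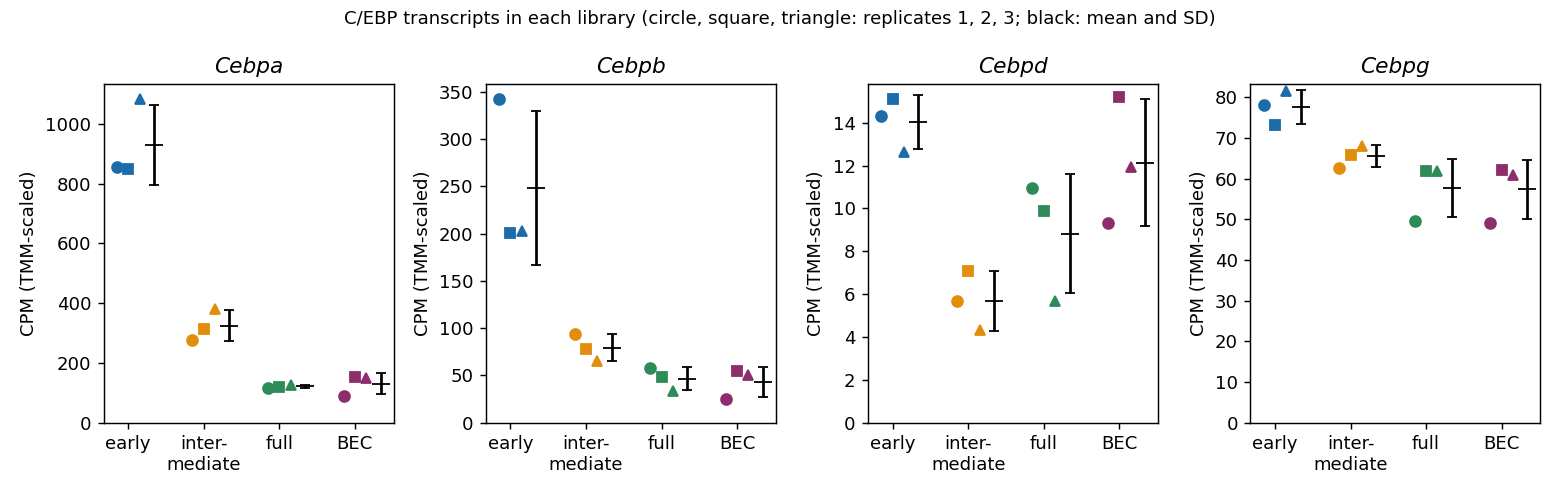
Level of each C/EBP gene in each library, in TMM-scaled CPM, by group, with the mean and SD (n = 3) in black and separate vertical axes that start at 0. Cebpa and Cebpb drop from early to full, Cebpd is lowest in the intermediate libraries, and Cebpg stays between 49.0 and 81.5 CPM.

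Across the 4 groups each of the 4 members differed (edgeR F test, adjusted p from 7.16e-09 for Cebpa to 0.00727 for Cebpg), where 75.6% of all genes tested did. At the first step 3 of 4 members were called lower, against 25.7% of the genes tested. At the second step 2 of 4 were called lower, against 19.8%. Full against early, all 4 were called lower (32.1% of genes tested), and BEC against early 3 of 4 (33.0% of genes tested). These counts depend on the scaling. With total counts only, Cebpa and Cebpb stayed lower in both comparisons, and Cebpg was called higher in both (0.44 and 0.43). Cebpd was then not called in full against early (0.20) and was called higher in BEC against early (0.66). Of all calls 81.8% and 80.3% were higher under that scaling. BEC against intermediate, Cebpa and Cebpb were lower, at log2 fold changes of -1.31 (adjusted p = 4.51e-05) and -0.87 (adjusted p = 0.0202), where 26.2% of genes tested were lower. The Cebpb call there was lost without intermediate replicate 1 (-0.73) or BEC replicate 1 (-0.60). Cebpd was the 1 member called higher in that comparison, as were 26.3% of genes tested.

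Between full and BEC cells no member changed past the threshold. By edgeR 0 of 4 members were called, 0 had an unadjusted p under 0.05, and DESeq2 called 0 as well, with 0 at an unadjusted p under 0.05, where 21.3% of all genes tested were called by edgeR. The log2 difference, BEC minus full, was 0.11 for Cebpa (95% interval -0.29 to 0.50), -0.10 for Cebpb (-0.72 to 0.51), 0.46 for Cebpd (-0.07 to 0.99) and -0.01 for Cebpg (-0.25 to 0.23). The intervals for Cebpb and Cebpd leave room for differences of more than 1.5-fold. Expressed as a share of the change from early to BEC on the log2 scale, intermediate cells had covered 53.2% ± 7.95 for Cebpa and 63.5% ± 10.2 for Cebpb, and full cells 102% ± 2.20 and 94.3% ± 15.3 (SD, n = 3). The early and BEC means are held fixed in all such shares, so their SDs leave out the spread of those groups. With total counts only, the intermediate shares were 42.9% ± 10.6 for Cebpa and 56.6% ± 16.3 for Cebpb (SD, n = 3). For Cebpg the shares of its fall were 54.7% ± 13.5 and 97.7% ± 41.7 (SD, n = 3), but with total counts only they were 99.6% ± 11.1 and 102% ± 46.1 of a rise. Cebpd did not follow such a course: its early to BEC difference was small and its intermediate level lay outside both, so its shares, 571% ± 153 and 309% ± 217 (SD, n = 3), do not measure progress.

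**Figure D2:**
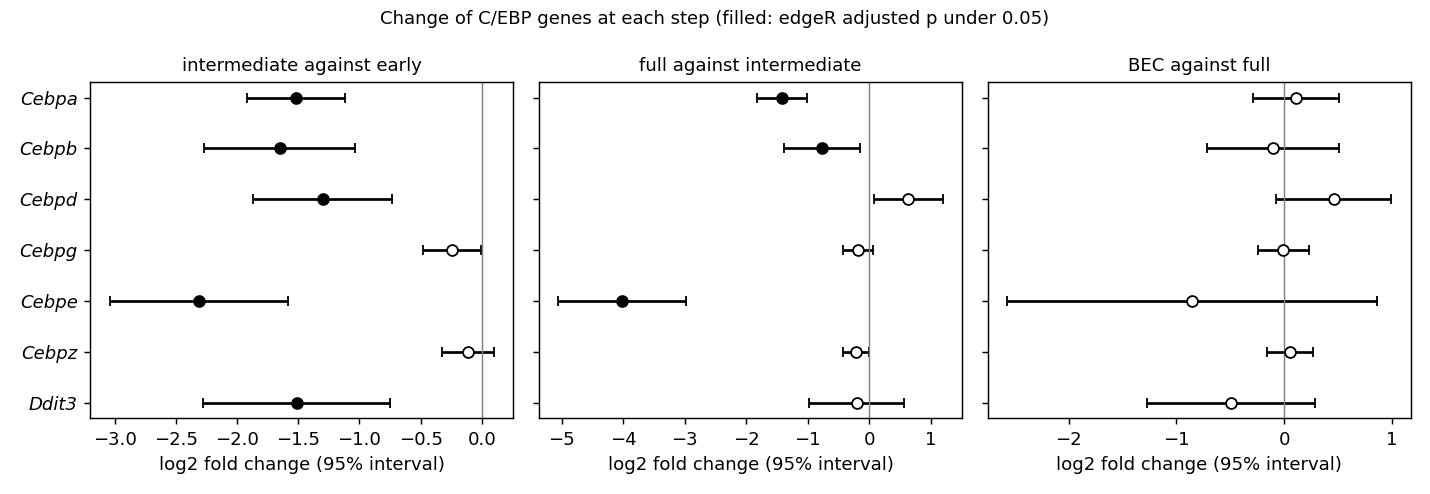
Log2 fold change of each C/EBP gene and of 3 further genes of the family at each step, with 95% intervals and separate horizontal axes. Filled points passed the test. At the first step Cebpa, Cebpb and Cebpd lie between -1.65 and -1.30, at the second Cebpd lies above 0 at 0.64, and no interval of a member lies clear of 0 for BEC against full.

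Ratios within a library do not depend on the scaling, so each member was set against Cebpa in the same library. The log2 ratio of Cebpg to Cebpa counts rose from -3.57 ± 0.15 in early to -2.29 ± 0.17 in intermediate and -1.07 ± 0.15 in full, and was -1.15 ± 0.25 in BEC (SD, n = 3). This is a 2.43-fold and then a 2.33-fold shift toward Cebpg, with no overlap between the first 3 groups. The ratio differed among the 4 groups (exact permutation test, 2-sided, p = 0.000519, adjusted over 3 ratios 0.00156). The ratio of Cebpd to Cebpa was -6.04 ± 0.33 in early and -5.84 ± 0.53 in intermediate, then -3.83 ± 0.57 in full and -3.41 ± 0.21 in BEC (SD, n = 3). Its shift of 4.04-fold thus came at the second step, and the groups differed (exact permutation p = 0.00305, adjusted 0.00458). For Cebpb to Cebpa the means were -1.94 ± 0.56, -2.04 ± 0.49, -1.41 ± 0.45 and -1.63 ± 0.17, with overlapping groups and no difference past the threshold (exact permutation p = 0.354, adjusted 0.354). That test ignores the pairing. Within replicate numbers the Cebpb ratio was higher in full than in intermediate in 3 of 3, by 0.54 to 0.70, and an exact test on 3 pairs cannot go below 0.25, the p found. Single steps cannot reach a p under 0.1 with 3 against 3 libraries, and both Cebpg steps and the second Cebpd step were at that limit.

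**Figure D3:**
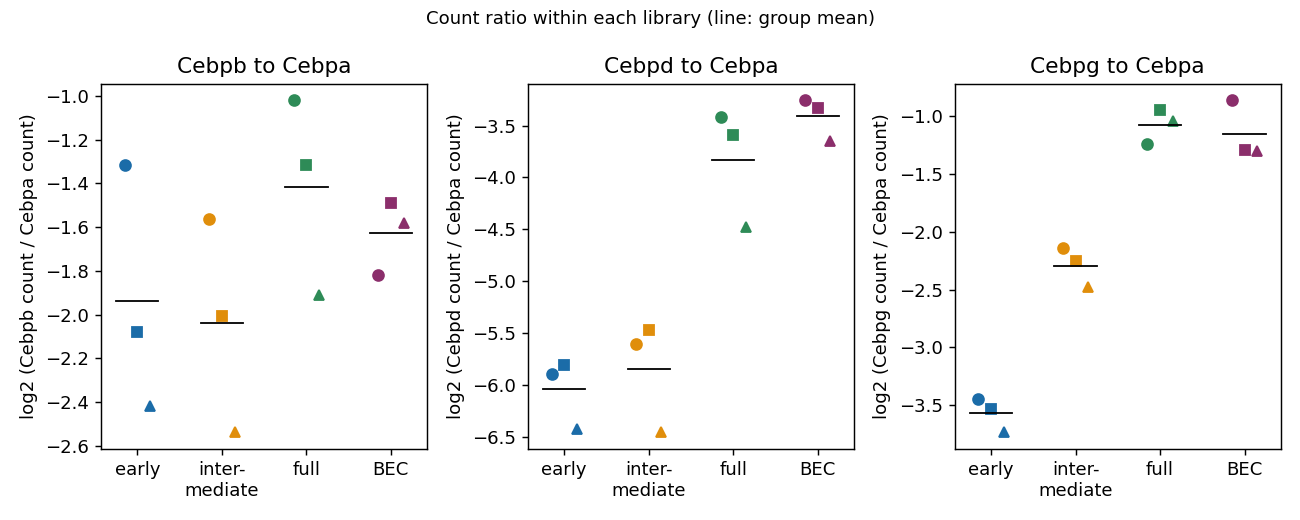
Log2 ratio of the counts of Cebpb, Cebpd and Cebpg to those of Cebpa within each library, with the group mean as a line and separate vertical axes. The Cebpg ratio climbs at both steps, the Cebpd ratio climbs between intermediate and full, and the Cebpb ratio overlaps between groups.

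Levels were also compared per length of exon, since a long transcript collects more reads. On this scale (CPM per kb, with union exon lengths from GENCODE M21) Cebpa stood at 352 ± 51.2, Cebpb at 165 ± 54.2, Cebpg at 13.8 ± 0.741 and Cebpd at 3.74 ± 0.337 in early libraries (SD, n = 3). The order Cebpa, Cebpb, Cebpg, Cebpd was the same for the means of all 4 groups, with means of 49.5, 28.7, 10.2 and 3.24 in BEC libraries. The sum over the 4 members fell from 535 ± 55.1 in early to 189 ± 10.7 in intermediate and 89.4 ± 5.73 in full libraries, and was 91.7 ± 26.1 in BEC (CPM per kb, SD, n = 3). Within that sum the makeup shifted. Cebpa gave 66.0% in early, 64.9% in intermediate, 51.6% in full and 54.1% in BEC libraries, and Cebpb between 28.1% and 34.2% of the group means. Cebpg went from 2.59% in early through 6.19% to 11.6% in full and 11.6% in BEC, and Cebpd from 0.708% through 0.810% to 2.61% and 3.60%. The Cebpd exon length differs between annotations, and with the shorter RefSeq span of 2260 bases in place of 3746 its early level was 6.20 CPM per kb.

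**Figure D4:**
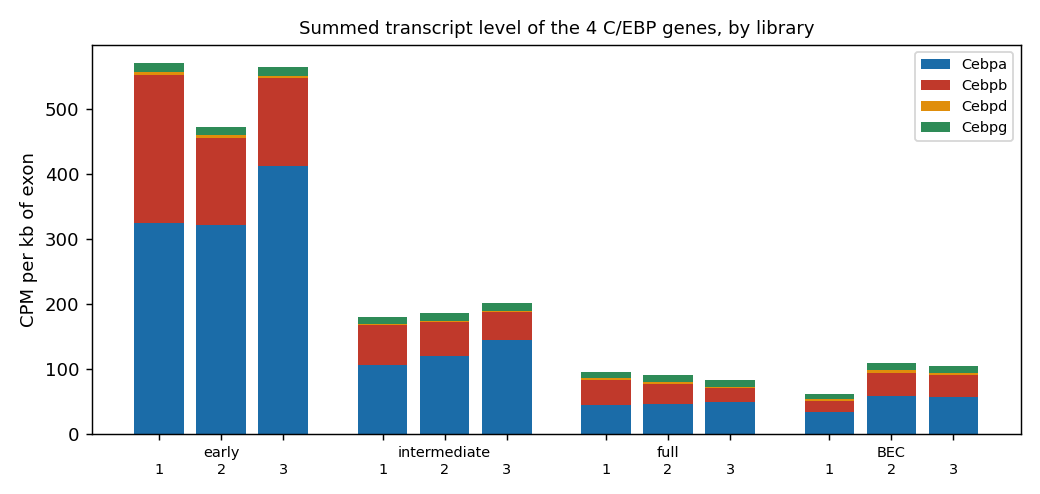
Summed level of the 4 C/EBP genes per library in CPM per kb of exon, stacked by gene, for replicates 1 to 3 of each group. Early libraries reach 472 to 570, intermediate ones 180 to 201, and the full and BEC libraries lie between 61.7 and 109.

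Some reads may not belong to the member they were counted for, since the strand setting of the count was not given in the sources used here. Cebpb shares 312 exon bases with Tmem189 on the opposite strand, which had 66 to 97 counts in early and 7 to 28 in full libraries, against 2202 to 4334 counts for Cebpb in early libraries. Cebpd shares 562 exon bases with Spidr on the opposite strand. Spidr is not scarce beside it, with 65 to 104 counts in early, 132 to 205 in intermediate and 263 to 308 in full libraries. At the first step Spidr rose (log2 fold change 0.58, adjusted p = 0.0186) where Cebpd fell, and at the second Spidr had 0.28 (adjusted p = 0.223), and its part in the Cebpd values was not tested.

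Cebpa and Cebpg are neighbours on mouse chromosome 7, and their neighbourhood was examined. Of 11 tested genes beside the pair, 3 were called lower at the first step and 3 at the second. This share was near that of all genes at the first (25.7%) and not far from it at the second (19.8%). At the first step 0 were called higher, and at the second 1 was, Chst8 (log2 fold change 3.50). Of all genes 28.7% and 20.8% were called higher. Lrp3, the nearest of the tested genes beyond Cebpa, had log2 fold changes of 0.22 (adjusted p = 0.349) and -0.98 (adjusted p = 0.00116) at the 2 steps. It was lower still in BEC than in full libraries (-1.67). Cebpa had -1.52, -1.42 and 0.11 for the same 3 comparisons, and the difference between the genes was not tested.

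The 3 further genes of the family differed widely from each other. Cebpe, best known from granulocytes, had 17.0, 12.7 and 14.0 CPM in early and 2.51, 2.08 and 4.19 CPM in intermediate libraries. In full libraries it had 2, 7 and 3 counts, and in BEC libraries 0, 3 and 3, at or under the floor. It fell at the first step (log2 fold change -2.31, SE 0.34, adjusted p = 5.84e-05), and BEC libraries were at least 101-fold below the early mean, with the floor of 3 counts taken per library. Of 10 neutrophil markers 0 passed the filter, their summed level in early libraries was 0.324 to 0.909 CPM, and S100a8, S100a9, Ly6g, Mpo and Ngp had 0 counts there. Ddit3, which encodes the inhibitory partner CHOP induced by stress, fell at the first step from 33.1 ± 18.4 to 11.5 ± 3.56 CPM (SD, n = 3, log2 fold change -1.51, adjusted p = 0.00255), and early replicate 2 had 53.7 CPM. The mitochondrial share of counts ran from 2.20% to 11.4% over the libraries, and its part in the Ddit3 values was not tested. Without early replicate 2 the Ddit3 fall was smaller and still called (-0.99, adjusted p = 0.0168). Cebpz, a C/EBP gene in name that acts in ribosome formation, had means of 56.4, 52.2, 44.9 and 46.6 CPM and was not called at any of the 3 steps. It was called lower in full against early (-0.33, adjusted p = 0.00852) and in BEC against early (-0.28, adjusted p = 0.0216), and with total counts only both turned, to 0.54 (adjusted p = 0.000275) and 0.59 (adjusted p = 0.000116).

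Gene lists linked to these factors were read against all genes tested, of which 28.7% were called higher and 25.7% lower at the first step, 20.8% and 19.8% at the second, and 10.7% and 10.6% in BEC against full. In the fit with the replicate block these shares were 30.1% and 27.1%, 22.9% and 22.1%, and 12.6% and 12.6%. Under total counts only they were 59.4% and 10%, then 32.3% and 12.2%, then 10.7% and 10.6%. Genes known to be driven by C/EBPα in hepatocytes were followed as a list of 20. Of these, 19 fell at the first step, Igfbp1 being the one that was not called, and 20 of 20 fell at the second, with median log2 fold changes of -2.55 and -2.66 against 0.06 and 0.01 over all genes. BEC against full, 9 were lower and 11 were not called, with a median of -0.34. Cyp7a1, the rate-limiting enzyme of bile acid synthesis, went from 270 ± 63.2 CPM in early to 18.1 ± 6.44 in intermediate libraries (log2 fold change -3.90, adjusted p = 2.08e-06). Hamp, the iron hormone hepcidin, went from 1161 to 96.0 CPM (-3.60), and Fabp1, a fatty acid carrier, from 451 to 32.2 CPM (-3.80). At the second step the largest falls were in Pck1, the gluconeogenic enzyme, from 289 to 20.2 CPM (-3.84), Gys2, liver glycogen synthase, from 32.8 to 2.72 CPM (-3.59), and Adh1, alcohol dehydrogenase (-3.47). Tat and the clotting factor gene F9 fell further between full and BEC, by log2 fold changes of -2.61 and -2.36, where Cebpa itself had 0.11. Of 15 general hepatocyte markers, 15 were lower at each of the first 2 steps and 7 in BEC against full. Some genes are on both lists, and the lists were not tested against each other.

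Acute phase genes, known targets of C/EBPβ and C/EBPδ, fell for the most part. Of 20 listed genes 18 were tested, and Il6 and Il1b were too low. At the first step 17 fell (median log2 fold change -2.40) and Cxcl1 was not called, and at the second 15 fell, Lcn2 rose and Lbp and Cxcl1 were not called (median -2.54). Saa1 and Saa2, serum amyloid A, went from 104 to 7.33 CPM and from 44.7 to 3.01 CPM at the first step (-3.83 and -3.89), although reads of these near-identical copies may be split uncertainly. At the second step Itih4 (-3.20) and the heme carrier Hpx (-2.94) fell with Saa4 (-3.41). Lcn2, a lipocalin that sequesters iron, was lowest in intermediate cells, as Cebpd was, at 905 ± 363, 259 ± 133, 551 ± 145 and 1383 ± 317 CPM in early, intermediate, full and BEC libraries (SD, n = 3). Its rise at the second step (1.09, adjusted p = 0.0213) lost its call when full replicate 1 (0.88) or either of intermediate replicates 2 (0.97) and 3 (0.82) was left out. Its rise from full to BEC (1.33, adjusted p = 0.0128) lost it without full replicate 3 or BEC replicate 1 (1.16 and 1.15). In BEC against full 4 of the 18 acute phase genes were lower and 13 were not called, with a median of -0.05, and the lower ones included the fibrinogen gene Fgb (-1.71), Hpx (-1.15) and Itih4 (-1.06). With the replicate block 4 were higher in place of 1, where 12.6% of all genes were.

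The genes of amino acid supply and stress that ATF4 drives together with C/EBPγ went in both directions, with more called lower than higher at each step. Of 20, 7 rose and 9 fell at the first step, 5 rose and 8 fell at the second, and 2 rose and 5 fell from full to BEC, with medians of -0.44, -0.53 and -0.37. The shares that rose, 7, 5 and 2 of 20, were near those of all genes given above. The shares that fell, 9, 8 and 5 of 20, were above the 25.7%, 19.8% and 10.6% of all genes. Of the serine synthesis genes, Phgdh rose (4.11, 12, 22.8 and 29.0 CPM in the 4 groups, log2 fold changes of 1.54 and 0.93 at the 2 steps). Psat1 rose at the first step (1.35) and fell from full to BEC (-1.21), and Psph, named after its values were seen, was lower at the first step (-0.49, adjusted p = 0.0207) but not with total counts only (0.18, adjusted p = 0.344). Vldlr, a lipoprotein receptor, rose most at the first step (3.32), from 8.53 to 85.3 CPM. Cth, which makes cysteine, fell from 370 through 36.3 to 4.99 CPM (-3.35 and -2.87), and the mitochondrial serine enzyme Shmt2 fell by 2.31 on the log2 scale at the first step. Ddit4, an inhibitor of mTOR signalling, rose at each step, from 15.6 to 26.2, 58.3 and 140 CPM. With total counts as the only scaling fewer of these genes, 4, were lower at the first step.

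Among other leucine zipper genes whose products can pair with C/EBP proteins, 16 of 19 were tested, and 5 rose and 6 fell at the first step, not far from the shares of all genes. With the replicate block 8 rose, where 30.1% of all genes did. With total counts only 9 rose and 1 fell, under a scaling that moved the median of all genes from 0.06 to 0.72. The proline- and acid-rich factor gene Hlf fell from 104 through 57.1 and 24.7 to 2.36 CPM, with log2 fold changes of -0.86, -1.21 and -3.38 at the 3 steps, the first of which was not called with total counts only (-0.20, adjusted p = 0.444). Atf5 fell at each step, from 249 through 73.0 and 32.7 to 15.2 CPM (-1.77, -1.16 and -1.11). Fosl2, an AP-1 subunit, went the other way, from 31.9 through 62.1 to 108 CPM (0.96 and 0.80). From full to BEC 2 fell and 0 rose, and with the replicate block 7 of 16 fell, where 12.6% of all genes did. Atf4, named after its values were seen as the partner of C/EBPγ, had log2 fold changes of -0.52, -0.38 and -0.32 at the 3 steps, of which the first was called. With total counts only that first value turned to 0.14 (adjusted p = 0.444).

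Signals and cofactors acting on C/EBP proteins were mixed too. Of 23, 11 rose and 6 fell at the first step, and 5 rose and 2 fell at the second. Under total counts only, 3 fell and most rose at the first step, where 59.4% of all genes rose. The 6 that fell at the first step and the 5 that rose at the second were near the shares of all genes. At the second step 10 rose and 1 fell with total counts only, where 32.3% and 12.2% of all genes did. Il6ra, the receptor for interleukin-6, which induces Cebpb and Cebpd, fell from 79.2 through 20.6 to 3.92 CPM (-1.94 and -2.39). Osmr, the receptor for oncostatin M, a cytokine of the same family, rose at the first step from 12 to 51.5 CPM (2.10, adjusted p = 1.35e-05). Il1rap, a subunit of the interleukin-1 receptor, fell at the first step (-1.90), and Cdk4 and Jak2 rose (0.94 and 0.89). Socs3, a feedback inhibitor of these cytokines, fell at the first step (-1.49, adjusted p = 0.0447), but early replicate 1 carried the difference. Without that library the log2 fold change was -0.09 (adjusted p = 0.855), and the call was also lost in 7 of the other 11 omissions of 1 library. From full to BEC 3 rose and 1 fell in this group, and with the replicate block 5 rose and 4 fell, where 12.6% of all genes were called in each direction.

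**Figure D5:**
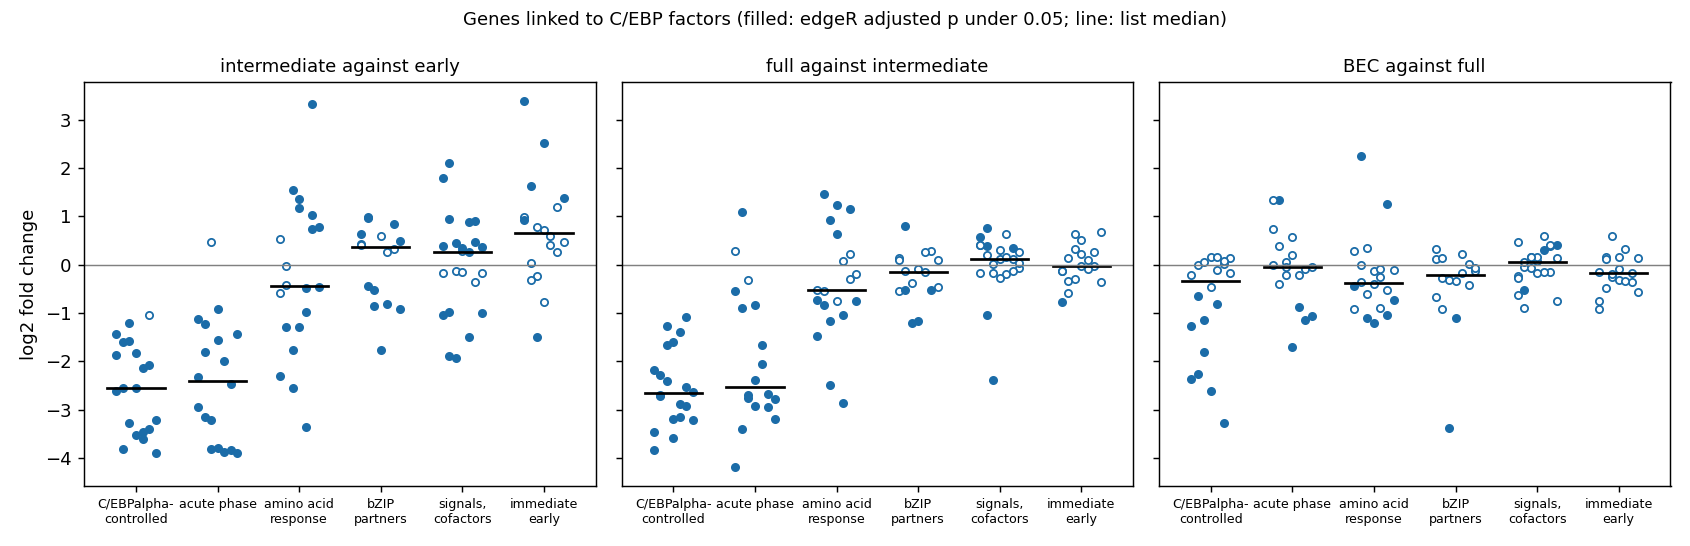
Log2 fold change of each tested gene of 6 lists linked to C/EBP factors at each step, with the list median as a line and filled points for genes that passed the test. The C/EBPα list and the acute phase list lie mostly below 0 at the first 2 steps, with medians between -2.66 and -2.40. The other lists hold values on both sides of 0, and the amino acid list has a median below 0 at each step.

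Since some C/EBP genes are induced quickly by stress, 18 immediate early and dissociation genes were counted beside them. Of these, 5 rose and 1 fell at the first step, 0 rose and 1 fell at the second, and none was called in BEC against full in the unpaired edgeR fit. The 5 that rose were a share near the 28.7% of all genes. With the replicate block 11 rose and 4 fell at the first step, 2 rose and 5 fell at the second, and 7 fell in BEC against full. All genes in that blocked fit had shares of 30.1% and 27.1%, 22.9% and 22.1%, and 12.6% lower in BEC against full. With total counts only 11 of 18 rose and 0 fell at the first step, where 59.4% of all genes rose. Hspa1a and Ier3 rose most at the first step (3.39 and 2.52). Their summed level was 4035 to 6824 CPM in early, 4620 to 9435 in intermediate, 5389 to 9226 in full and 4296 to 8318 in BEC libraries, and the part of these genes in the Cebpb and Cebpd results was not tested.

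Macrophages also express Cebpa, Cebpb and Cebpd. Of 12 macrophage and monocyte markers 9 were tested, and 2 rose and 2 fell at the first step, 2 rose at the second and 3 rose in BEC against full. At the first 2 steps the rising share was near that of all genes, as was the falling share at the first. The 3 that rose from full to BEC were Cd14, Csf1r and Cd68 (log2 fold changes 1.51, 0.90 and 1.10), where 10.7% of all genes rose. The median over the tested markers there was 0.75. Their summed level was 67.4 to 175 CPM in early, 95 to 141 in intermediate, 191 to 231 in full and 492 to 528 in BEC libraries. Most of it in BEC libraries came from Cd14 (361 CPM) and Csf1r (127 CPM), while Ptprc, found on nearly all leukocytes, had 0.681 CPM and Adgre1, which defines liver macrophages, 0.522 CPM. The part of these cells in the Cebpd level of BEC libraries was not tested. Stellate cell and fibroblast markers summed to 88.8 to 241 CPM in early, 56.7 to 139 in intermediate, 41.4 to 68.0 in full and 42.1 to 70.7 in BEC libraries. Endothelial markers summed to 13.8 to 22.3, 6.16 to 14.9, 2.08 to 4.64 and 1.73 to 6.63 CPM in the same order. The early and intermediate ranges overlapped for both lists, while the early and full ranges did not. Full against early, 6 of 7 tested stellate cell and fibroblast markers and 3 of 6 endothelial ones were called lower, where 32.1% of all genes were. The part of these cells in the Cebpa and Cebpb results was not tested.

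Genes whose levels followed each member most closely were sought over the 12 libraries among 9963 genes of at least 10 CPM, as a description of groups that share libraries. For Cebpa these were Mknk2 (Pearson r = 0.995), Rxra (0.993) and C8b (0.993), and 1180 genes had an r over 0.95. For Cebpb they were Psmb5 (0.990), Rnf126 (0.990) and Bri3 (0.986), with 280 genes over 0.95. For Cebpg they were Pced1a (0.963), Krt18 (0.962) and Ccdc91 (0.957), with 5 genes over 0.95. Cebpd had no such company: its closest genes were Tmie (0.878), Rnf19b (0.866) and Psmb9 (0.860), and 0 genes were over 0.95. These counts and choices depend on the scaling and the measure. With total counts only, 338 genes were over 0.95 for Cebpa, 3 for Cebpb, 0 for Cebpd and 1 for Cebpg, and by Spearman's rho 129, 168, 0 and 42. With total counts only Cebpa kept C8b, Cebpb kept Psmb5, Cebpd kept Tmie and Cebpg kept none of the 3. Among the members, r was 0.934 between Cebpa and Cebpb with TMM scaling and 0.868 with total counts only. Between Cebpa and Cebpg it was 0.903 with TMM scaling and turned to -0.570 with total counts only, and between Cebpa and Cebpd it was 0.225 and -0.424.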

How the data were processed

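RNA from 12 libraries of sorted mouse liver cells was sequenced, and groups were taken from the sample titles. The authors deposited counts per gene symbol, made with STAR 2.7.10b and featureCounts 2.0.1 on GRCm39, per the submitters' processing notes. How strand and multiply matching reads were handled, and the annotation, are not given in the sources used here. A further table the authors deposited is a normalized signal, each library's counts over a single size factor, and was not used in tests. No row lacked a gene name and no column lacked a sample.

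All 12 libraries entered 1 fit in edgeR 4.0.16 (R 4.3.3) with TMM scaling, filterByExpr and a term per group. The 6 pairs of groups were compared by quasi-likelihood tests and all 4 groups by an F test, with Benjamini-Hochberg adjustment over 16210 genes and a threshold of 0.05. The change at the second step minus that at the first was added after the data were seen. Log2 CPM used a prior count of 2, and ratios to Cebpa a pseudocount of 0.5 counts and exact 2-sided permutation tests. Depth, and so counting error, is given by the floor of 3 counts, and it covers counting error only, since PCR copies are not independent molecules. Promoter windows came from RefSeq (GRCm38.p6), and exon lengths from GENCODE M21.

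The members and the gene lists were chosen with earlier results of these data known. The text names the members, their 3 relatives, Cd24a, Epcam, up to 3 called genes per direction, list and step that changed most on the log2 scale and reached 10 CPM in either group, and the 3 genes most like each member. Other genes were named after their values were seen.

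Replicates of a group differed beyond counting error (chi-square per degree of freedom from 5.34 to 58.2). Deviations of same-numbered libraries from their group means correlated across genes (intermediate and early, r = 0.121 to 0.293, full and intermediate, 0.137 to 0.322, BEC and full, 0.170 to 0.257), so the numbers pair the libraries there by this check. In the other comparisons the lowest r was 0.0960, 0.0442 and 0.0839. What the numbers mark was not stated. Alternatives were DESeq2 1.42.0, its size factors, total counts, a minimum fold change, a replicate block, other filters, other pseudocounts, fits of the 6 libraries compared and the omission of each library.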

Additional observations from a re-analysis of the deposited data

How the results depend on the processing

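Cebpa and Cebpb kept their direction and their calls at the first step, and Cebpa at the second, under the alternatives run, although total counts made the first-step falls smaller (-0.86 and -0.98). For other results of the members some alternatives moved a call or a sign. With DESeq2's size factors in edgeR, Cebpg at the first step was -0.30 and passed, Cebpb at the second was -0.73 and did not, and Cebpg in BEC against full was 0.00246. With total counts only, Cebpg was 0.42 and Cebpz 0.55 at the first step, Cebpb -0.57, Cebpd 0.84 and Cebpg 0.0188 at the second, Cebpd 0.20, Cebpg 0.44 and Cebpz 0.54 in full against early, Cebpd 0.66, Cebpg 0.43 and Cebpz 0.59 in BEC against early, Cebpb -0.67 and Cebpg 0.0104 in BEC against intermediate, and the difference between the steps -0.36 for Cebpa and -0.40 for Cebpg. Over all genes that difference was then called for 6139 in place of 2665. With DESeq2, Cebpg was -0.30 at the first step and Cebpd 0.68 at the second, both past the threshold, and Cebpg 0.00254 in BEC against full. Without a filter, Cebpd at the second step was 0.64 and Cebpb's difference between steps 0.86, both past the threshold. With a mean of at least 50 counts, Cebpb at the second step was -0.74 and Cebpg in BEC against full 0.00333. With the replicate block, Cebpg at the first step was -0.25 and Cebpd at the second 0.63, both past the threshold, and the block changed no other call of a member in the comparisons where numbers pair the libraries. With only the 6 libraries compared, Cebpg at the first step was -0.24 and passed.

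Against a minimum 2-fold change, the calls lost were Cebpd at the first step (-1.30), Cebpb at the second (-0.77), Cebpd (-0.67) and Cebpg (-0.43) in full against early, Cebpg in BEC against early (-0.44), and Cebpa (-1.31), Cebpb (-0.87) and Cebpd (1.09) in BEC against intermediate. Over all genes it called 2773, 1931 and 803 at the 3 steps, and 5671, 6129 and 3202 in full against early, BEC against early and BEC against intermediate. Without 1 library at a time, the log2 fold change ran from -0.29 to -0.20 for Cebpg at the first step, from -0.95 to -0.58 for Cebpb 0.45 to 0.87 for Cebpd and -0.417 to 0.0205 for Ddit3 at the second, from -0.0203 to 0.320, -0.303 to 0.169 and -0.110 to 0.0905 for Cebpa, Cebpb and Cebpg, and from -0.0244 to 0.129 for Cebpz, in BEC against full, from -0.84 to -0.42 for Cebpd in full against early, and from -1.07 to -0.60 for Cebpb in BEC against intermediate. The difference between steps ran from -0.107 to 0.350 for Cebpa, 1.59 to 2.32 for Cebpd and -0.00955 to 0.151 for Cebpg, and was called for 1676 to 2863 genes. The ratio of Cebpb to Cebpa, intermediate minus early, ran from -0.337 to 0.214. The cause of these shifts was not tested, beyond what fewer libraries or genes bring. Depth limits Cebpd, with 76 to 326 counts a library, and Cebpe in full and BEC libraries.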
